A study of Homo sapiens with 6 samples.

Results

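FTH1 and FTL encode the heavy and light chains of ferritin, the cytosolic shell that stores iron. The pair was set as 2 of the 60554 gene IDs in the count files, ENSG00000167996.15 (FTH1) and ENSG00000087086.13 (FTL), and both were present in all 6 libraries. The libraries came from HCT116, a human colorectal carcinoma cell line, and from a single sucrose gradient fraction, free 40S, which holds small ribosomal subunits that are not part of assembled ribosomes. RNA recovered from that fraction with an anti-LARP1 antibody (LARP1 IP) was set against RNA recovered with normal rabbit serum IgG, the measure of background (IgG control), and against RNA that was not immunoprecipitated (Input), with 2 libraries per group that the labels call biological replicates. The labels name no treatment or genotype that differs between the groups.

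Iron regulatory proteins bind a hairpin near the 5′ end of both ferritin mRNAs, the iron-responsive element, and keep small ribosomal subunits from joining the mRNA while iron is scarce. LARP1 holds back another class of mRNAs, those that begin with a C and a run of pyrimidines (the terminal oligopyrimidine, or TOP, motif), which encode ribosomal proteins and translation factors. The ferritin mRNAs are therefore a pair of abundant mRNAs with a repression route of their own, measured in a fraction in which LARP1-bound mRNAs were sought.

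In RefSeq (GRCh38.p14) FTH1 lies on chromosome 11 from 61964285 to 61967634 and FTL on chromosome 19 from 48965309 to 48966879, both as protein-coding genes. The RefSeq table of start regions held FTL and not FTH1, so the start of FTH1 was not examined. The stretches shown are the places at which the 2 repression routes act on their own targets: the annotated start of the transcript, chr19:48965299-48965318 on the plus strand, where the first 5 transcribed bases are in capitals, and the loop side of the iron-responsive element, chr19:48965339-48965358, transcribed bases 31 to 50 and so in the 5′ untranslated region, where the unpaired C and the loop CAGTGN are in capitals.
FTL annotated start: acgtcccctcGCAGTtcggc
FTL iron-responsive element: tgCttcaaCAGTGTttggac

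The annotated FTL transcript begins with G. A start with C and 4 pyrimidines was found in 4.07% of the 35116 start regions in the table, and in 55.3% of the 85 start regions of protein-coding genes with an RPS or RPL symbol, which are mostly ribosomal protein genes. A run of 7 pyrimidines ended directly before the annotated FTL start, and runs of that length or longer stood there in 4.49% of all start regions and 12.9% of the RPS and RPL ones. The letters CNNNNNCAGTGN, the C and loop of the element with the 5 bases between them, were present in the first 50 transcribed bases of FTL and of 1.67% of all start regions. On the opposite strand 1.66% held them and FTL did not, so the letters alone are about as frequent on the strand that is not transcribed. These matches describe RefSeq's annotated start and not the starts used in HCT116.

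The libraries differed in composition. Totals ran from 4135463 to 8069554 counts, and the 2 genes with the most counts took 87.9% to 88.6% of Input, 70.9% and 71.5% of the IgG control, and 21.3% and 26.6% of the LARP1 IP. The count left for all other genes was thus lowest in Input (752862 and 778680) and highest in the LARP1 IP (3823470 and 3256012). A ferritin level therefore depends on what it is divided by, and each level below is named by its scale.

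FTH1, the heavy chain that carries ferroxidase activity, had 1028 and 1145 counts in Input, 2529 and 4600 in the IgG control, and 4801 and 6034 in the LARP1 IP. FTL, the light chain that supports the iron core, had 4690 and 3680 counts in Input, 8599 and 11401 in the IgG control, and 16018 and 13150 in the LARP1 IP. For both mRNAs the 2 LARP1 IP libraries held the highest counts and the 2 Input libraries the lowest.

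With counts scaled to the same library total (CPM), FTH1 stood at 155 and 178 in Input, 344 and 570 in the IgG control, and 921 and 1459 in the LARP1 IP. On the same scale FTL stood at 707 and 573 in Input, 1169 and 1413 in the IgG control, and 3073 and 3180 in the LARP1 IP. Counting error was small beside the difference between replicates of FTH1: the 95% Wilson intervals in the LARP1 IP ran from 895 to 948 and from 1423 to 1496 CPM. These intervals cover counting error only, since reads are not independent molecules.

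As a share of the counts outside the 2 most abundant genes, this order was not seen. FTH1 took 0.137% and 0.147% of those counts in Input, 0.118% and 0.200% in the IgG control, and 0.126% and 0.185% in the LARP1 IP. FTL took 0.623% and 0.473% in Input, 0.401% and 0.496% in the IgG control, and 0.419% and 0.404% in the LARP1 IP. On this scale the libraries of the 3 groups overlapped for FTH1, and for FTL the LARP1 IP libraries lay below both Input libraries and within the range of the IgG control. Both ferritin mRNAs together made up 0.690% ± 0.099 of these counts in Input, 0.607% ± 0.12 in the IgG control and 0.567% ± 0.032 in the LARP1 IP (SD, each n = 2).

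**Figure D1:**
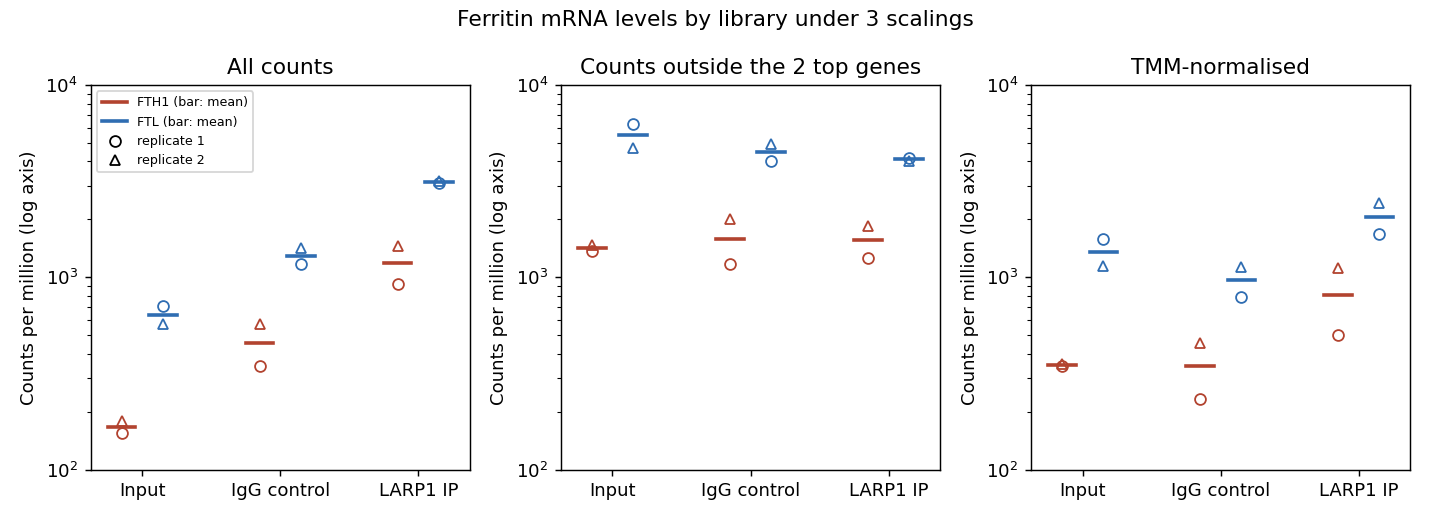
FTH1 (red) and FTL (blue) in each library, in CPM on a log axis, divided by all counts (left), by counts outside the 2 most abundant genes (middle) and after TMM normalisation (right). Points are libraries and bars are means of 2 libraries. The step from Input to the LARP1 IP on the left is absent in the middle panel, and on the right the LARP1 IP libraries are the highest for either gene.

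TMM normalisation sets the bulk of genes equal between libraries. In TMM-normalised CPM, the scale of all CPM values from here on, FTH1 stood at 345 and 355 in Input, 234 and 456 in the IgG control, and 504 and 1122 in the LARP1 IP. FTL stood at 1573 and 1142 CPM in Input, 794 and 1131 in the IgG control, and 1680 and 2446 in the LARP1 IP. The 2 LARP1 IP libraries were the highest of the 6 for either gene, although LARP1 IP replicate 1 exceeded the next library by little (504 against 456 CPM for FTH1, 1680 against 1573 CPM for FTL).

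Whether ferritin mRNA stood above background in the LARP1 IP, relative to the bulk of genes, was asked against the IgG control. On the TMM scale both chains stood at a little over 2 times their IgG control level, which is not an amount recovered. As a mean share of the counts outside the 2 most abundant genes they did not stand higher. FTH1 took 0.155% against 0.159% in the IgG control, and FTL 0.411% against 0.448%. Neither chain passed the test on the TMM scale (a Benjamini-Hochberg adjusted p of 0.05 over all tested genes). The lowest log2 fold change called higher was 1.26, and FTH1 lay just below it at 1.24. FTH1 averaged 813 ± 438 CPM in the LARP1 IP and 345 ± 157 CPM in the IgG control (SD, each n = 2), a 2.36-fold difference with a 95% interval from 1.16 to 4.78. Its log2 fold change was 1.24 ± 0.47 (SE), which did not pass the threshold (edgeR quasi-likelihood test, adjusted p = 0.119, unadjusted p = 0.0211). FTL averaged 2063 ± 542 CPM against 963 ± 238 CPM (SD, each n = 2), a 2.14-fold difference with an interval from 1.16 to 3.96. Its log2 fold change was 1.10 ± 0.41 (SE; edgeR adjusted p = 0.111, unadjusted p = 0.0186). Of the 2 members 0 passed, where 8.54% of the 10788 tested genes were called higher and 2.29% lower (10.8% in either direction). Both members had LARP1 IP libraries wholly above the IgG control libraries, as did 27.3% of tested genes.

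The members lay above most genes. Their place below the genes called higher partly follows from how those genes were chosen. The median log2 fold change of all tested genes was -0.06 (quartiles -0.64 and 0.63), and 86.9% of genes had a lower value than FTH1 and 85.0% a lower value than FTL. The genes called higher had a median of 2.35, which lies above the upper end of the 95% intervals of FTH1 (2.26) and FTL (1.98). That median comes from genes chosen by the same test and is given as a description.

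The size depended on which libraries entered. Without LARP1 IP replicate 2 the log2 fold change of FTH1 was 0.55 and that of FTL 0.81 (edgeR adjusted p = 0.574 and 0.315). Without LARP1 IP replicate 1 they were 1.70 and 1.35, and both passed (edgeR adjusted p = 0.0184 and 0.0459). FTH1 also passed without IgG control replicate 2, at 1.79 (edgeR adjusted p = 0.0362), and was at 0.83 without IgG control replicate 1 (edgeR adjusted p = 0.519).

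The comparison with Input shares the LARP1 IP libraries with the one above. It asked whether ferritin mRNA stood higher in the LARP1 IP, relative to the bulk of genes, than in the fraction it was drawn from. As a part of all counts, both mRNAs together made up 0.0807% ± 0.00785 of Input and 0.432% ± 0.0456 of the LARP1 IP (SD, each n = 2). In the test with TMM the FTH1 difference was about as large as over background and that of FTL was smaller, and neither passed. FTH1 averaged 813 ± 438 CPM in the LARP1 IP and 350.1 ± 7.47 CPM in Input (SD, each n = 2), a 2.32-fold difference with a 95% interval from 1.14 to 4.71. Its log2 fold change was 1.22 ± 0.47 (SE; edgeR adjusted p = 0.160, unadjusted p = 0.0231). FTL averaged 2063 ± 542 CPM against 1358 ± 305 CPM (SD, each n = 2), a 1.52-fold difference with an interval from 0.827 to 2.79. Its log2 fold change was 0.60 ± 0.41 (SE; edgeR adjusted p = 0.433, unadjusted p = 0.162). Again 0 of 2 members passed, where 4.63% of tested genes were called higher and 1.52% lower (6.15% in either direction). The LARP1 IP libraries lay above the Input libraries for both members, as for 28.8% of tested genes.

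The median log2 fold change of all genes over Input was 0.03, with quartiles at -0.57 and 0.68. FTH1 lay above 87.7% of genes and FTL above 72.2%, so that FTL was below the upper quartile and FTH1 above it. Genes called higher over Input had a median of 2.50, above the upper ends of the FTH1 (2.24) and FTL (1.48) intervals. These genes too were chosen by the same test, and their median is given as a description. FTH1 was at 0.54 without LARP1 IP replicate 2 and passed at 1.69 without LARP1 IP replicate 1 (edgeR adjusted p = 0.685 and 0.0252), and FTL passed in neither case, at 0.32 and 0.86 (edgeR adjusted p = 0.812 and 0.226).

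**Figure D2:**
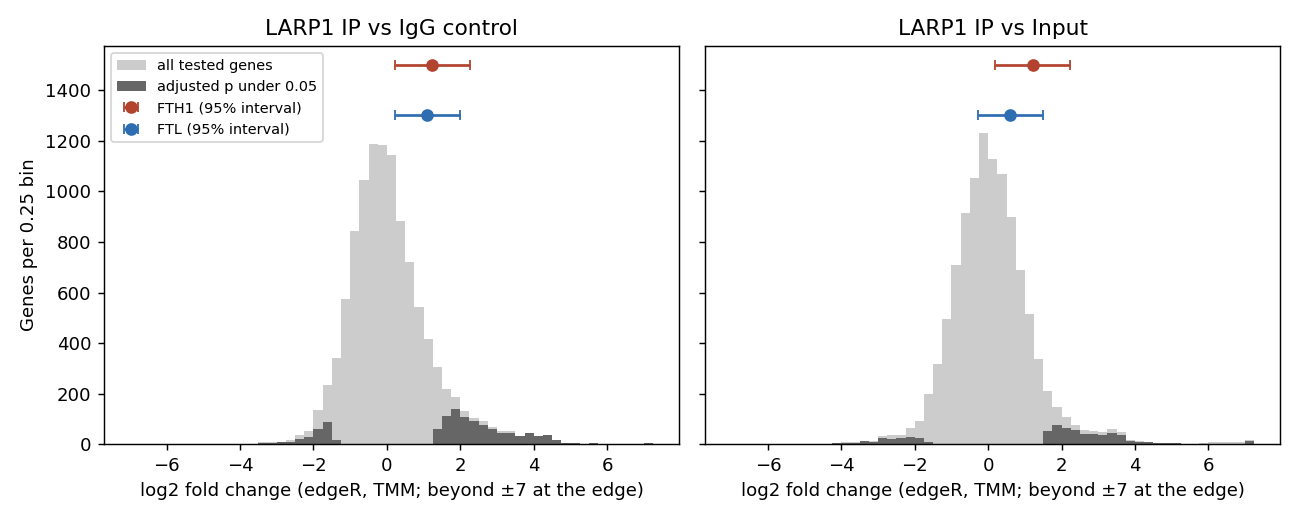
Distribution of log2 fold changes over the 10788 tested genes for the LARP1 IP against the IgG control (left) and Input (right), with genes past the threshold in dark grey. Points with 95% intervals mark FTH1 (1.24 and 1.22) and FTL (1.10 and 0.60), which lie on the right shoulder of all genes. The lowest values called higher (1.26 and 1.42) lie above them and come from genes chosen by the same test.

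The background comparison set levels in the IgG control, relative to the bulk of genes, against those in Input. FTH1 had a log2 fold change of -0.02 ± 0.47 (SE), with a 95% interval from -1.03 to 0.99 (edgeR adjusted p = 1). FTL had -0.50 ± 0.41 (SE), with an interval from -1.37 to 0.38 (edgeR adjusted p = 0.861). By edgeR 0% of the 10788 genes were called in this comparison, with 725 at an unadjusted p under 0.05 and 38 called by DESeq2. The IgG control libraries of FTH1 (234 and 456 CPM) lay on either side of the Input libraries (345 and 355 CPM), while those of FTL were both below Input, 1131 CPM against 1142 CPM at the nearest, as for 19.3% of tested genes.

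The calls and the sign of the ferritin differences moved with the scaling. Total counts gave log2 fold changes of 1.38 (FTH1) and 1.28 (FTL) over the IgG control and 2.84 and 2.29 over Input, all past the threshold (edgeR adjusted p = 0.0285, 0.00978, 0.000264 and 0.000148). Totals that leave out the 2 most abundant genes gave -0.033 and -0.12 over the IgG control and 0.13 and -0.41 over Input, none past it (edgeR adjusted p = 0.943, 0.722, 0.802 and 0.305). The median of all tested genes moved as well, from -0.06 to 0.15 and -1.24 over the IgG control and from 0.03 to 1.75 and -0.92 over Input. A scaling factor shifts all genes of a library alike, so the distance of a gene to that median is nearly fixed by construction across scalings and is given to show where the members lie. With the median subtracted, FTH1 lay 1.21 to 1.30 above it over the IgG control and 1.06 to 1.18 over Input across 5 scalings. FTL lay 1.12 to 1.16 above it over the IgG control and 0.51 to 0.57 over Input. In the IgG control against Input, FTH1 lay -0.06 to -0.02 and FTL -0.51 to -0.50 from the median. Leaving out single libraries moved the same distance more, from 0.65 (without LARP1 IP replicate 2) to 1.78 (without LARP1 IP replicate 1) for FTH1 over the IgG control.

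**Figure D3:**
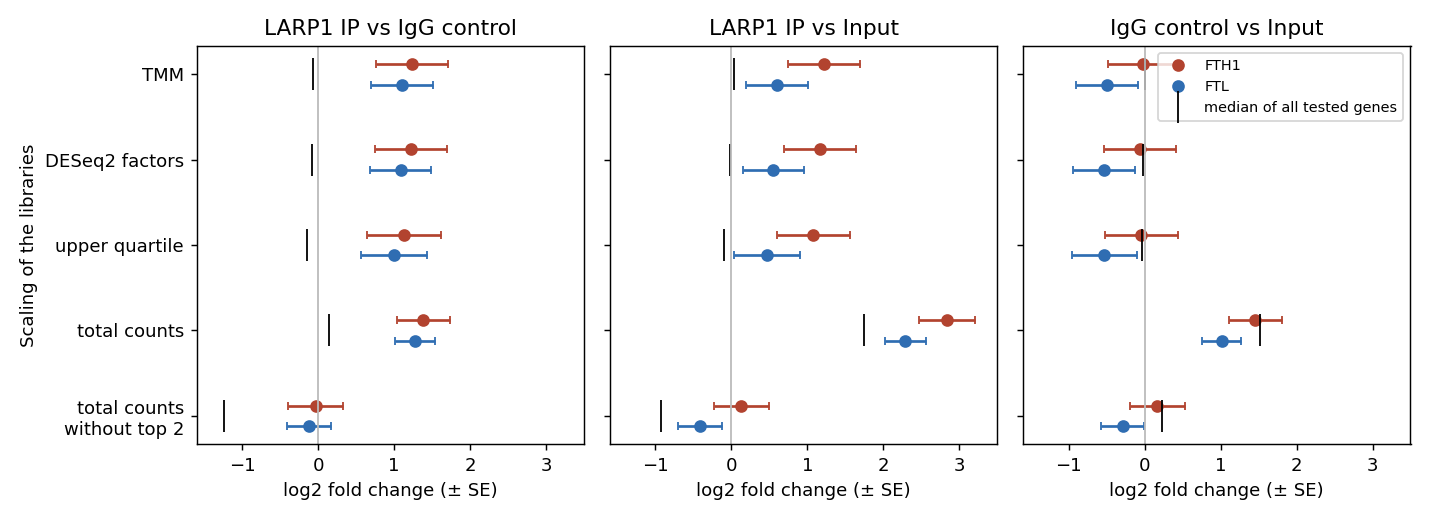
Log2 fold changes of FTH1 (red) and FTL (blue) with their SE in the 3 comparisons under 5 scalings of the libraries, with the median of all tested genes as a black tick. The points and the tick move together: over Input FTH1 goes from 0.13 to 2.84, and its distance to the tick is 1.06 to 1.18, as a shift common to all genes gives.

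Genes with at least the read level of a ferritin mRNA in Input were a mixed company. In Input, 69 genes had a TMM-normalised level at least that of FTH1, on a scale of reads that also grows with transcript length. This set has no upper limit and is not restricted to mRNAs. Against the IgG control, 8.54% of all tested genes were called higher in the LARP1 IP and 2.29% lower. Of the 69, 41 were called higher and 17 lower, while FTH1 itself was neither. Their median log2 fold change was 2.91, and 41 of them exceeded the 1.24 of FTH1. Over Input, where 4.63% of all tested genes were called higher and 1.52% lower, 40 of the 69 were called higher and 21 lower. The 69 had a median of 2.58. Within these 69, 18 genes stood at least as high in Input as FTL, so the 2 sets are nested. Of the 18, 1 was called higher and 14 lower against the IgG control, with a median of -1.62. Over Input 1 of these 18 was called higher and 14 lower, with a median of -2.58, and 2 exceeded the 0.60 of FTL. The genes of both sets were chosen by their level in Input, so their values over Input are not independent of that choice.

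The ferritin ranks were lowest in the LARP1 IP, where their TMM-normalised levels, but not their shares outside the 2 most abundant genes, were highest. By read count FTH1 was number 75 and 65 among all genes in Input, 72 and 48 in the IgG control, and 113 and 97 in the LARP1 IP. FTL was number 16 and 23 in Input, 24 in both IgG control libraries, and 63 and 71 in the LARP1 IP. Both were lower in rank in either LARP1 IP library than in any of the other 4.

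The balance between the chains does not depend on scaling, because both counts come from the same library. FTL made up 82.0% and 76.3% of ferritin counts in Input, 77.3% and 71.3% in the IgG control, and 76.9% and 68.5% in the LARP1 IP. Within every group the library numbered 1 had the larger FTL share, and the 95% Wilson intervals of the 2 libraries did not overlap (in the LARP1 IP, 76.4% to 77.5% and 67.9% to 69.2%). The difference between replicates was thus larger than counting error.

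Group means of the FTL to FTH1 count ratio were 3.89 ± 0.95 in Input, 2.94 ± 0.65 in the IgG control and 2.76 ± 0.82 in the LARP1 IP (SD, each n = 2). On the log2 scale the LARP1 IP mean was below Input by a difference of -0.51 and the IgG control mean by -0.40, against within-group SDs of 0.40 and 0.34. The LARP1 IP and IgG control means differed by -0.11, less than the SD of 0.38. Compared without regard to replicate numbers, the groups overlapped in all 3 comparisons and the exact permutation p was 0.667 in each, where 2 libraries against 2 cannot give a p below 0.333 in a two-sided test.

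**Figure D4:**
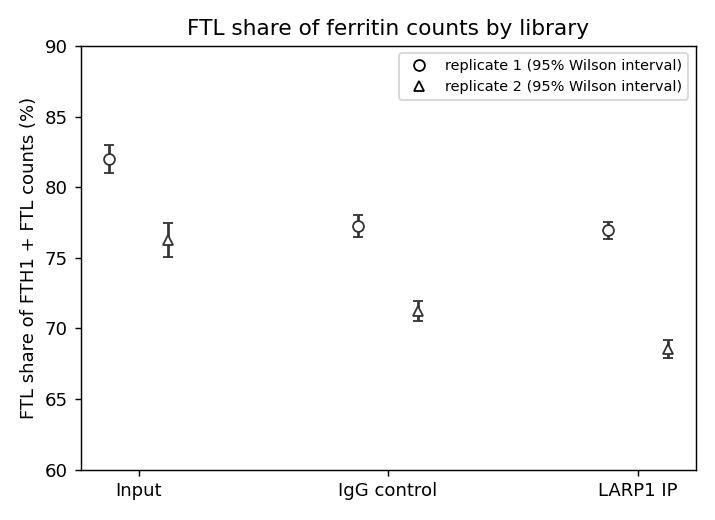
FTL as a percentage of FTH1 plus FTL counts in each library (axis not from 0), with 95% Wilson intervals for counting error. In each group replicate 1 lies above replicate 2, and the groups overlap: Input replicate 2 (76.3%) is below replicate 1 of the IgG control (77.3%) and of the LARP1 IP (76.9%).

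Likeness of pattern was measured as the Euclidean distance between log2 CPM values over the 6 libraries, each gene centred on its own mean, among the 3065 genes whose mean reached 10 CPM. The nearest gene to FTH1 was ENSG00000099785.10 at a distance of 0.42 (log2 fold changes 1.21 over the IgG control and 1.06 over Input), and the nearest to FTL was ENSG00000111057.10 at 0.25 (1.19 and 0.59). The median distance of all such genes was 1.99 from FTH1 and 1.70 from FTL. The 2 ferritin mRNAs stood 0.84 apart, below both medians. Among the 3065 genes this made FTL number 119 in likeness to FTH1 and FTH1 number 285 in likeness to FTL. The other chain was thus closer than most genes, though not among the closest. With 6 libraries in 3 groups this is a description of these libraries.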

How the data were processed

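The authors deposited raw read counts per gene, 1 file per library, not normalized or pooled. Build GRCh38 and TopHat2 2.1.1, Bowtie2, Subread 1.20.6 with featureCounts, and CASAVA 1.8 are named per the submitters' processing notes. The treatment of reads with several matches is not given in the sources used here. RefSeq names 27 pseudogenes after FTH1 and 20 after FTL, and the part of counts shared with such copies was not tested. Per the labels, poly(A) selection was omitted.

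R 4.3.3 with edgeR 4.0.16 was used: filterByExpr (minimum count 10), TMM, and a quasi-likelihood fit of all 6 libraries with group as the only term (3 residual degrees of freedom, tested on simulated counts). DESeq2 1.42.0 was an alternative. Genes were called at an adjusted p (Benjamini-Hochberg, over 10788 genes) of 0.05. The SE is the size of the log2 fold change over the square root of F. No source names separate cultures, so p-values reflect variation among these libraries, which may be technical. The members, lists, tests and alternatives were chosen with earlier results of these data known. Genes named were the members, whose symbols came with their choice, and the most similar gene to each, by ID. The files pair no ID with a symbol and 0 RefSeq rows held an Ensembl ID, so planned lists of 30 iron-handling genes and 20 TOP mRNAs were not applied. RefSeq start regions span 250 bases before to 50 after each start.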

Additional observations from a re-analysis of the deposited data

How the results depend on the processing

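Neither member passed in any comparison in the fit reported, and with upper-quartile factors, the filter at 50 counts, the fit of only the 4 libraries compared and DESeq2 all 6 log2 fold changes kept their direction and stayed short of the threshold. Total counts took all 6 past it: 1.38 (FTH1) and 1.28 (FTL) over the IgG control, 2.84 and 2.29 over Input, and, with the sign turned, 1.46 and 1.01 for the IgG control over Input. Total counts without the 2 most abundant genes turned the sign of FTH1 (-0.033) and FTL (-0.12) over the IgG control, of FTL over Input (-0.41) and of FTH1 in the IgG control over Input (0.165), none past the threshold. These changes follow the shift of all genes by construction. Without a low-count filter FTH1 passed over the IgG control (1.22, edgeR adjusted p = 0.0424) and over Input (1.35, 0.0237), and was at 0.127 in the IgG control over Input; the cause was not tested.

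Replicate numbers recur in each group, and the labels do not tie them to a batch. Departures from the group mean, over genes, correlated between libraries of one number at 0.341 (Input and IgG control), 0.144 (Input and LARP1 IP) and 0.65 (IgG control and LARP1 IP), which is a hint and not part of the design. In the fit with a replicate block FTH1 passed over the IgG control (1.21, edgeR adjusted p = 0.0249) and no other member value changed its call. Close to the threshold were FTL over the IgG control (1.10, edgeR adjusted p = 0.051) and FTH1 over Input (1.08, edgeR adjusted p = 0.0651). The block gave 2435, 1634 and 74 called genes for the LARP1 IP against the IgG control, the LARP1 IP against Input and the IgG control against Input, where the fit without it gave 1168, 663 and 0 (725 at an unadjusted p under 0.05 in the last). Taken between libraries of one number, the FTL to FTH1 log2 ratio differed by -0.027 and -0.19, by -0.45 and -0.56, and by -0.42 and -0.37 in the same order of comparisons. The replicate block thus left pairs of one sign whose means (-0.11, -0.51 and -0.40) equal the unpaired differences by construction, and whose differences from each other were smaller than those between replicates of a group.

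Counts of called genes that moved by over 1.5 times were 6593 and 5822 against Input with total counts (LARP1 IP and IgG control), 4348, 1306 and 2 in the order above with total counts without the 2 genes, 1051 and 73 against Input without a filter, 761 (LARP1 IP against IgG control) and 13 (IgG control against Input) with 4 libraries, and 38 with DESeq2 for the IgG control against Input. Leaving out each library, where a group of 1 library was taken to vary as much as the others, gave FTH1 0.55 to 1.79 over the IgG control, 0.54 to 1.69 over Input and -0.61 to 0.38 for the IgG control over Input. It gave FTL 0.81 to 1.38, 0.32 to 0.86 and -0.80 to -0.26. Called genes ranged over 707 to 1264, 0 to 976 (0 by edgeR without either Input library, with 1872 and 1189 at an unadjusted p under 0.05) and 0 to 50. The FTL to FTH1 log2 ratio differences ranged from -0.41 to 0.20, -0.81 to -0.20 and -0.65 to -0.15. Input had the fewest counts of either mRNA and each group held 2 libraries. The part of counting error and of library spread in each comparison was not tested.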
